A study of Mus musculus with 20 samples.

Results

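The miR-200 family and miR-203 are miRNAs best known from epithelia, and they were followed here in cultured dendritic cells and macrophages. The 4 members miR-200b-3p, miR-200c-3p, miR-141-3p and miR-203-3p were taken from 1228 miRNAs detected in small RNA libraries. A read was counted for a member when its sequence, of 18 to 26 nt, matched that arm of the annotated mouse hairpin exactly. All 4 passed the filter on low levels and were among the 378 miRNAs tested. Also given, for comparison, are miR-200a-3p and miR-429-3p, which lie beside miR-200b on chromosome 4 and complete the family.

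The study holds 20 libraries of bone marrow cultures, 1 for each of 2 cell types, 2 genotypes and 5 stimulus states. Cultures from miR-155-/- mice (strain B6.Cg-Mir155tm1.1Rsky/J) were set against cultures from wild-type C57BL/6 mice, all from animals of 8 to 12 weeks. Macrophages were grown with M-CSF and dendritic cells with GM-CSF, both from hybridoma supernatant, and each had 1 unstimulated library and 1 each with LPS, oxLDL, eLDL and LDL. Dendritic cells received 200 ng/ml LPS overnight at day 8 to 9. Doses of the lipoproteins, and doses and times for macrophages, were not found in the sources used here, and oxLDL and eLDL are not spelled out there. No condition had a replicate, and nothing in the labels tells if the libraries of 1 culture came from separate mice, so p-values measure the scatter between matched libraries, which may be technical.

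A miRNA recognises mRNAs mainly through its seed, bases 2 to 8 from the 5′ end. In epithelial cells the miR-200 family represses the transcription factors ZEB1 and ZEB2, which themselves silence E-cadherin and the miR-200 genes, and this mutual repression helps to hold cells in an epithelial state. The family is transcribed from a pair of clusters on different chromosomes and falls into seed groups that differ at a single base. In mouse skin, miR-203 is abundant in differentiating keratinocytes and represses the stem cell factor p63. None of these miRNAs is regarded as typical of myeloid cells. miR-155, the gene deleted in the knockout, is induced in myeloid cells by inflammatory stimuli.

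The mature sequences of the 4 members and of the neighbours miR-200a-3p and miR-429-3p are shown because the seed, in capitals, sorts them into groups, and because miR-200b and miR-200c are close enough to be confused in counting. They are from RefSeq (GRCm38.p6), 5′ to 3′.
miR-200b-3p: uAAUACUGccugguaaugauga
miR-200c-3p: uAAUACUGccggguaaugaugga
miR-429-3p: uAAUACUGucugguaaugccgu
miR-141-3p: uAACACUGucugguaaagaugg
miR-200a-3p: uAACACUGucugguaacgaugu
miR-203-3p: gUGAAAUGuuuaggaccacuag

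miR-200b-3p, miR-200c-3p and miR-429-3p share the seed AAUACUG, and among 1679 mature mouse miRNAs of the RefSeq table these 3 alone carry it. miR-141-3p and miR-200a-3p share AACACUG and are the only 2 with that seed. miR-203-3p is the single miRNA with UGAAAUG. Counted from 1 at the 5′ end of miR-200b-3p, miR-200b-3p and miR-200c-3p differ by U11G and A22G over 22 positions. miR-141-3p and miR-200a-3p differ by A17C and G22U. Every counted tag is at least 18 nt long and so covers position 11. Reads of 21 nt or more with A or C at position 11, which belong to neither, numbered 6, beside 10386 exact reads of miR-200b-3p and 5351 of miR-200c-3p of those lengths. This count does not cover U misread as G or G misread as U, the change by which miR-200b-3p and miR-200c-3p would be confused.

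The seed groups are split between the genomic clusters. In GRCm38, Mir200b (chr4:156055681-156055750), Mir200a (chr4:156054896-156054985) and Mir429 (chr4:156053905-156053987) lie within 1846 bp on the minus strand of chromosome 4, in introns of Ttll10, a tubulin tyrosine ligase-like gene. The Mir429 hairpin also overlaps an exon of the noncoding transcript Gm13648. Mir200c (chr6:124718322-124718390) and Mir141 (chr6:124717914-124717985) lie within 477 bp on the minus strand of chromosome 6, in an intron of the antisense transcript Gm15884. The Mir141 hairpin also overlaps an exon of Gm29008, annotated on the same strand. Mir203 (chr12:112130880-112130955) is on the plus strand of chromosome 12, overlaps no other annotated gene and lies 3321 bp from the nearest protein-coding gene, Aspg. Each cluster therefore encodes both family seeds, miR-200b-3p and miR-200a-3p on chromosome 4 and miR-200c-3p and miR-141-3p on chromosome 6.

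Library depth ran from 10.3 to 22.8 M reads, of which 5.13 to 11.8 M (42.5 to 63.8%) matched miRNA hairpins. Levels are given as CPM, the count scaled to a fixed total of hairpin reads, and a count of 3, the floor used for a count of 0 and equal to its one-sided Poisson limit, corresponds to 0.254 to 0.584 CPM. miR-155-5p was at 3.92 to 5.87 CPM in knockout macrophages, against 5324 to 39700 CPM in wild-type macrophages, and at 0.307 to 0.782 CPM in knockout dendritic cells, against 128.1 to 9521 CPM in wild-type dendritic cells, as the genotype labels say. In macrophage libraries 7.52 to 7.92% of reads of 20 nt or more had an uncalled base at position 20, against at most 9.27e-06% in dendritic cell libraries. Cell type and whatever gave the uncalled base cannot be told apart. Leaving position 20 out of the match, a choice made after seeing the data, added 15.8 to 18.1% to the members' reads in macrophages and 0.333 to 1.34% in dendritic cells. It added 13.1 to 13.6% to all hairpin reads in macrophages and 0.464 to 0.535% in dendritic cells, so that all 80 CPM values stayed within their 95% counting intervals.

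The members were expressed at low to moderate levels in every library. Over the 20 libraries miR-200b-3p had 10734 reads, miR-200c-3p 6157, miR-141-3p 5716 and miR-203-3p 2065. By mean CPM, miR-200c-3p ranked 143rd, miR-200b-3p 152nd, miR-141-3p 157th and miR-203-3p 271st of 1228 miRNAs in macrophages. In dendritic cells miR-200b-3p ranked 137th, miR-141-3p 201st, miR-200c-3p 212th and miR-203-3p 215th. By culture, miR-200c-3p had the highest mean of the 4 in knockout macrophages, and miR-200b-3p had it in wild-type macrophages and in dendritic cells of both genotypes. As a check of the label, epithelial markers were mixed. miR-205-5p, a marker of stratified epithelium, had 13 reads in all 20 libraries, and miR-375-3p, a marker of secretory epithelium and islets, did not exceed 1.02 CPM, while miR-192-5p, abundant in intestine and kidney, was at 180 to 876 CPM. The summed level of 4 myeloid miRNA arms of miR-223 and miR-142 was 27700 to 32400 CPM in knockout and 21600 to 29500 CPM in wild-type macrophages, and 20100 to 26100 CPM in knockout and 17000 to 25000 CPM in wild-type dendritic cells.

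**Figure D1:**
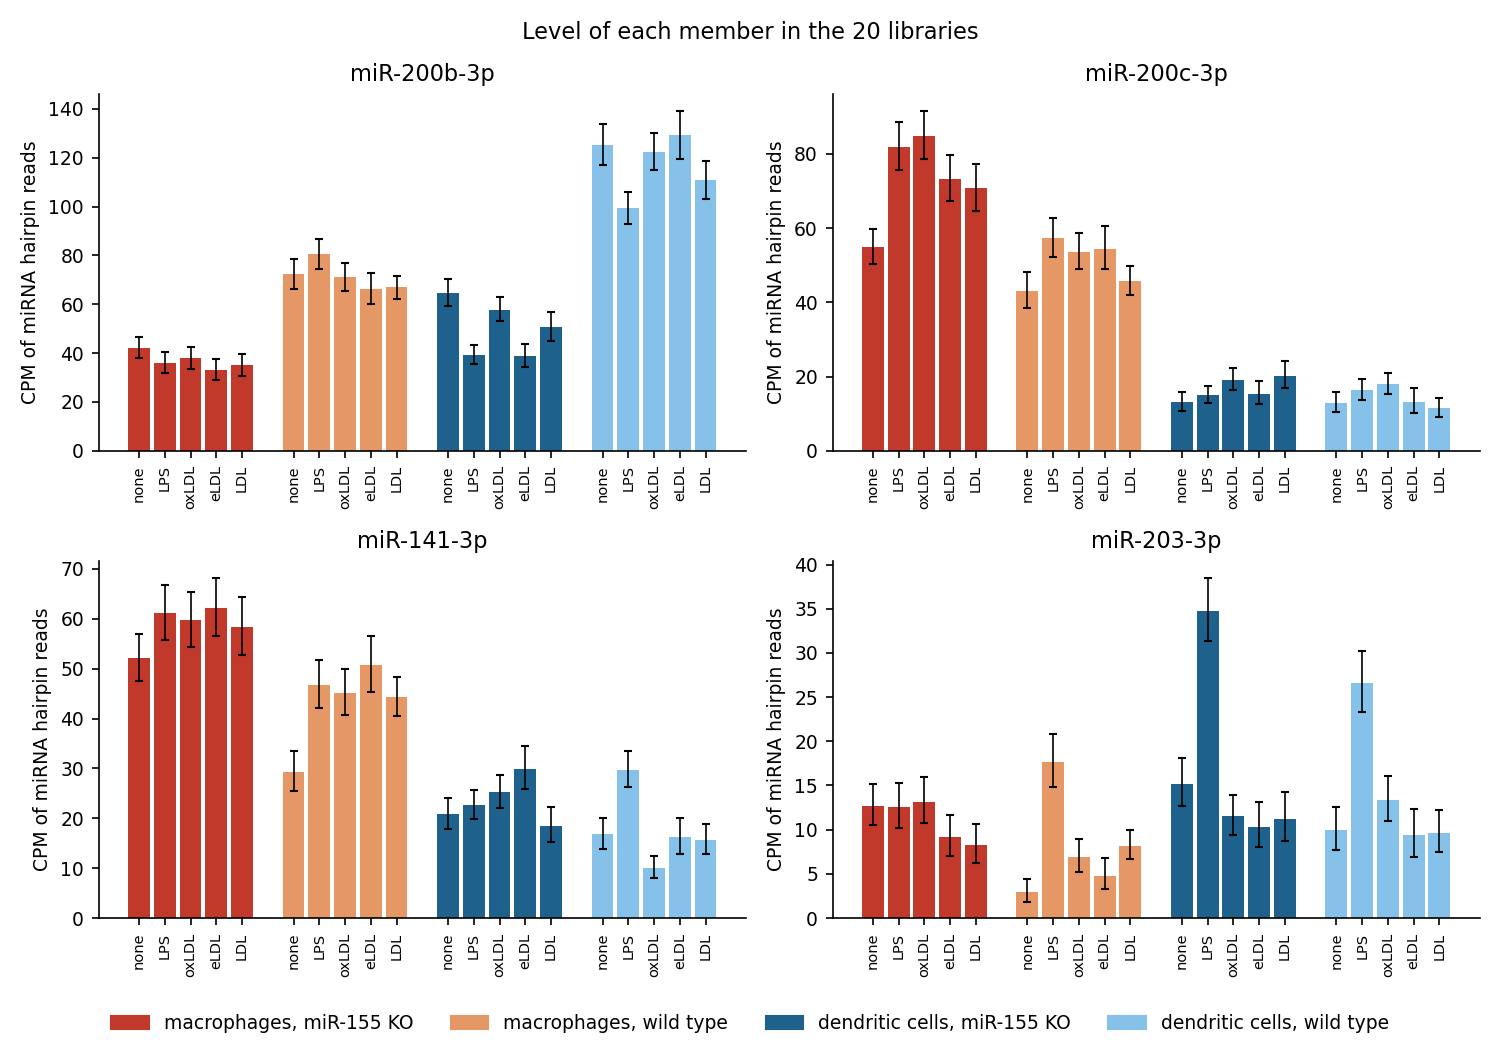
Level of miR-200b-3p, miR-200c-3p, miR-141-3p and miR-203-3p in each of the 20 libraries, in CPM of miRNA hairpin reads. Bars are single libraries grouped by culture, in the stimulus order none, LPS, oxLDL, eLDL and LDL, and error lines are exact 95% Poisson intervals of counting error. miR-200b-3p is lower in each knockout culture than in its wild-type culture, and miR-200c-3p and miR-141-3p are higher in macrophages than in dendritic cells.

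Almost all reads came from the 3p arms. miR-200b-5p had 131 reads in the 20 libraries, miR-141-5p 71, miR-203-5p 6, miR-200c-5p 4 and miR-429-5p 0, while miR-200a-5p had 1308. The 6 reads of miR-203-5p were all in unstimulated knockout dendritic cells.

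The tags that made up each 3p arm differed from the reference mainly at the 3′ end, except for miR-203-3p. The most abundant tags are given because they carry the ends that the cells' RNA showed, again with bases 2 to 8 in capitals.
miR-200b-3p, 23 nt: uAAUACUGccugguaaugaugac
miR-200c-3p, 22 nt: uAAUACUGccggguaaugaugg
miR-141-3p, 21 nt: uAACACUGucugguaaagaug
miR-203-3p, 21 nt: uGAAAUGUuuaggaccacuag
miR-203-3p, 22 nt: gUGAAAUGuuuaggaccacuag

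The 23 nt tag, 1 base longer than the reference, held 87.4% of miR-200b-3p reads. The 22 nt tag held 49.6% of miR-200c-3p reads, the 23 nt reference 33.7% and a 19 nt tag with the same start 10.3%. The 21 nt tag held 82.9% of miR-141-3p reads. Their seeds were as annotated, since 97.6% of miR-200c-3p reads and 95.7% of miR-141-3p reads began at the reference base. miR-203-3p had a pair of starts. Over all libraries 44.8% of its reads began at the reference base and 51.7% began 1 base later, which moves the seed from UGAAAUG to GAAAUGU. The later start made up 53.0% of reads in knockout and 58.5% in wild-type macrophages, and 48.3% in knockout and 50.9% in wild-type dendritic cells. By library its share ran from 42.9 to 67.7% in macrophages and from 37.3 to 65.2% in dendritic cells, on 21 to 372 reads, and the ranges overlapped. Both starts therefore occurred in all 4 cultures.

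**Figure D2:**
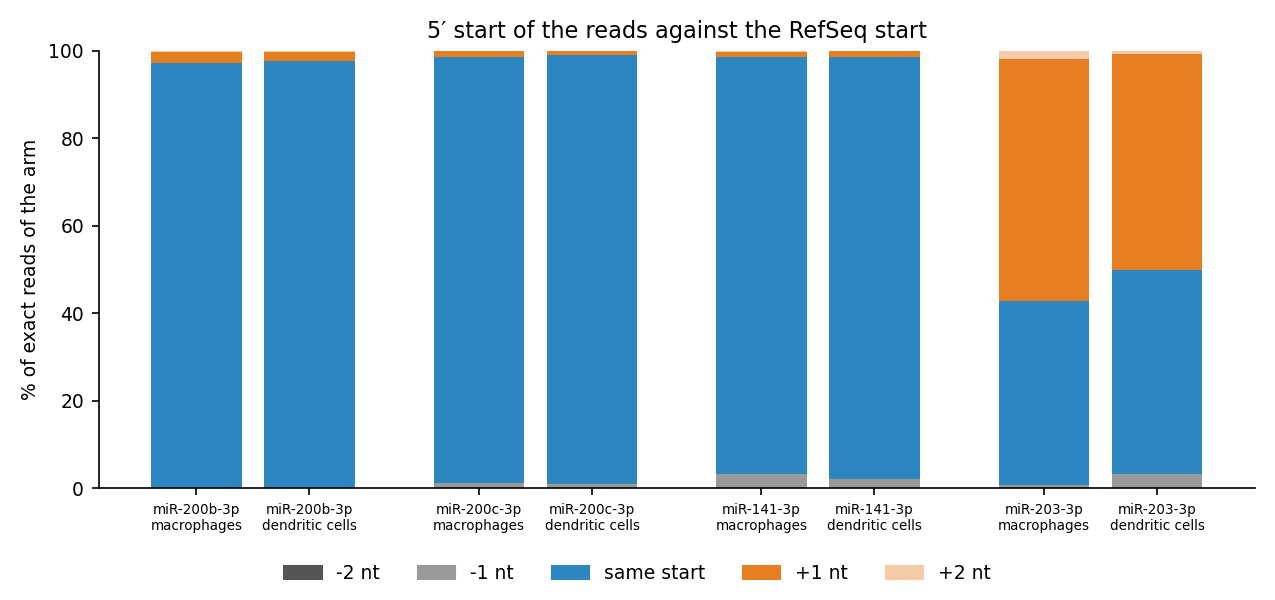
Share of each member's exact reads by the position of their first base against the RefSeq start, summed over the 10 libraries of macrophages (left bar of each pair) and of dendritic cells. miR-203-3p alone of the 4 has a large share, 55.4% in macrophages and 49.4% in dendritic cells, that starts 1 base later.

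Reads with 1 or 2 bases at the 3′ end that are not in the hairpin were counted apart. They made up 17.9% of miR-200b-3p reads in macrophages and 25.1% in dendritic cells, and 13.3% of miR-200c-3p reads in macrophages and 21.6% in dendritic cells. The share was 17.4% in macrophages and 12.0% in dendritic cells for miR-203-3p. For miR-141-3p it was only 1.37% in macrophages and 1.77% in dendritic cells, below the other 3 members. The neighbour miR-200a-3p was at 2.37% in macrophages and 2.55% in dendritic cells, but its share cannot be compared with the others. After its 21 nt tag the hairpin continues with T and T. A T added to its 21 or 22 nt tag therefore matched the hairpin and was not counted as an addition. miR-429-3p was at 15.9% in macrophages and 18.7% in dendritic cells. A single added T was the most frequent addition to miR-200b-3p, in 73.2% of its extended reads.

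The first comparison asks what differed without miR-155. miR-200b-3p fell in knockout cells of both types, to a fitted 0.460 of the wild-type level in macrophages and 0.446 in dendritic cells, and the other members did not pass the test. In macrophages miR-200b-3p was at 42.2, 36.0, 37.8, 33.2 and 34.9 CPM in knockout libraries (none, LPS, oxLDL, eLDL and LDL), against 72.2, 80.4, 71.0, 66.0 and 66.9 CPM in wild-type libraries. In dendritic cells it was at 64.8, 39.4, 57.8, 38.7 and 50.6 CPM in knockout libraries, against 125, 99.3, 122, 129 and 111 CPM in wild-type libraries. The groups did not overlap in either cell type. How many of all tested miRNAs were likewise without overlap is not given, here or for the groups below. The knockout library was lower in 10 of 10 matched pairs, at 0.447 to 0.585 of its wild-type partner in macrophages and 0.300 to 0.517 in dendritic cells. The fitted log2 change was -1.12 ± 0.13 (SE) in macrophages (adjusted p = 1.15e-05) and -1.16 ± 0.13 in dendritic cells (adjusted p = 3.35e-05), with edgeR's quasi-likelihood test and Benjamini-Hochberg adjustment over all 378 miRNAs. Of the 4 members, 1 was called, as lower, in each cell type. Over all tested miRNAs 23.5% were called and 14.6% were called lower in macrophages, and 8.99% were called and 4.23% were called lower in dendritic cells. The difference between the cell types in this knockout effect was 0.04 ± 0.18 (adjusted p = 0.896), where 14.0% of all miRNAs were called.

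The neighbours of miR-200b on chromosome 4 were also lower in knockout macrophages. miR-429-3p, which shares the seed of miR-200b-3p, was at 4.76, 7.88, 7.17, 7.62 and 4.77 CPM in knockout macrophages, against 16.6, 16.5, 15.4, 11.3 and 16.2 CPM in wild-type macrophages, a log2 change of -1.42 ± 0.24 (adjusted p = 0.000559). miR-200a-3p averaged 30.7 ± 5.33 CPM in knockout and 49.2 ± 5.30 CPM in wild-type macrophages (SD, n = 5 each), a log2 change of -0.86 ± 0.11 (adjusted p = 2.84e-05). The groups did not overlap for either neighbour in macrophages, again without the share over all miRNAs to set beside it. In dendritic cells miR-429-3p averaged 15.2 ± 1.72 CPM in knockout and 27.7 ± 8.33 CPM in wild-type cultures and was lower in 5 of 5 pairs, but its log2 change of -0.74 ± 0.23 had an adjusted p of 0.0644. That value was past the threshold, at an adjusted p of 0.0191 to 0.0495, with scaling by total miRNA reads, the DESeq2 Wald test, a filter of 1 CPM, no filter or tags of 20 to 24 nt. miR-200a-3p averaged 50.7 ± 2.63 CPM in knockout and 62.7 ± 9.26 CPM in wild-type dendritic cells, a log2 change of -0.22 ± 0.11 (adjusted p = 0.241). The knockout change of miR-200a-3p in macrophages minus that in dendritic cells was -0.64 ± 0.15 (adjusted p = 0.00973), a call lost with total miRNA reads (-0.40, adjusted p = 0.129), with a filter of 1 CPM or none and without any 1 of 9 libraries (-0.76 to -0.53 over all libraries left out). The passenger arm miR-200a-5p averaged 6.81 ± 1.52 CPM in knockout and 10.4 ± 2.60 CPM in wild-type macrophages (log2 change -0.76 ± 0.25, adjusted p = 0.0426). Its call was lost with total miRNA reads (-0.59, adjusted p = 0.105), and without any 1 of 14 of the libraries, where it ran from -0.50 to -0.79.

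The chromosome 6 pair did not follow the chromosome 4 cluster. miR-200c-3p was at 54.9, 82.0, 84.9, 73.3 and 70.8 CPM in knockout macrophages, against 43.1, 57.2, 53.6, 54.5 and 45.7 CPM in wild-type macrophages, and was higher in 5 of 5 pairs, although the groups overlapped. miR-141-3p was at 52.1, 61.1, 59.7, 62.2 and 58.3 CPM in knockout macrophages, against 29.2, 46.8, 45.1, 50.7 and 44.3 CPM in wild-type macrophages. It was higher in 5 of 5 pairs with no overlap between the groups, for which the share over all miRNAs is not given. Neither passed the test, at log2 0.35 ± 0.15 (adjusted p = 0.109) for miR-200c-3p and 0.30 ± 0.19 (adjusted p = 0.314) for miR-141-3p. These values moved with the scaling, because scaling by total miRNA reads raised the median knockout change of all miRNAs in macrophages by 0.17. Under that scaling miR-200c-3p was at 0.52 (adjusted p = 0.0104). It also passed the threshold with DESeq2 size factors (0.43, adjusted p = 0.0449), with the DESeq2 Wald test (0.43, adjusted p = 0.0184), with tags of 20 to 24 nt (0.43, adjusted p = 0.0413), and without the LPS or LDL library of either dendritic cell genotype (0.35 to 0.43, adjusted p = 0.0239 to 0.0497).

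In dendritic cells miR-200c-3p averaged 16.6 ± 2.97 CPM in knockout and 14.4 ± 2.69 CPM in wild-type cultures (log2 change 0.28 ± 0.16, adjusted p = 0.332). miR-141-3p averaged 23.4 ± 4.44 CPM in knockout and 17.7 ± 7.26 CPM in wild-type cultures (log2 change 0.54 ± 0.20, adjusted p = 0.125), and passed the threshold only without the LPS library of either dendritic cell genotype (0.75, adjusted p = 0.0219 and 0.0221). Both sets of ranges overlapped. miR-203-3p averaged 11.2 ± 2.30 CPM in knockout and 8.08 ± 5.70 CPM in wild-type macrophages (log2 change 0.48 ± 0.31, adjusted p = 0.310), and 16.6 ± 10.3 CPM in knockout and 13.8 ± 7.36 CPM in wild-type dendritic cells (log2 change 0.31 ± 0.29, adjusted p = 0.571), with overlap in both cell types. The median log2 change of the 4 members was 0.32 in macrophages and 0.29 in dendritic cells, beside -0.05 and 0.01 over all miRNAs tested.

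**Figure D3:**
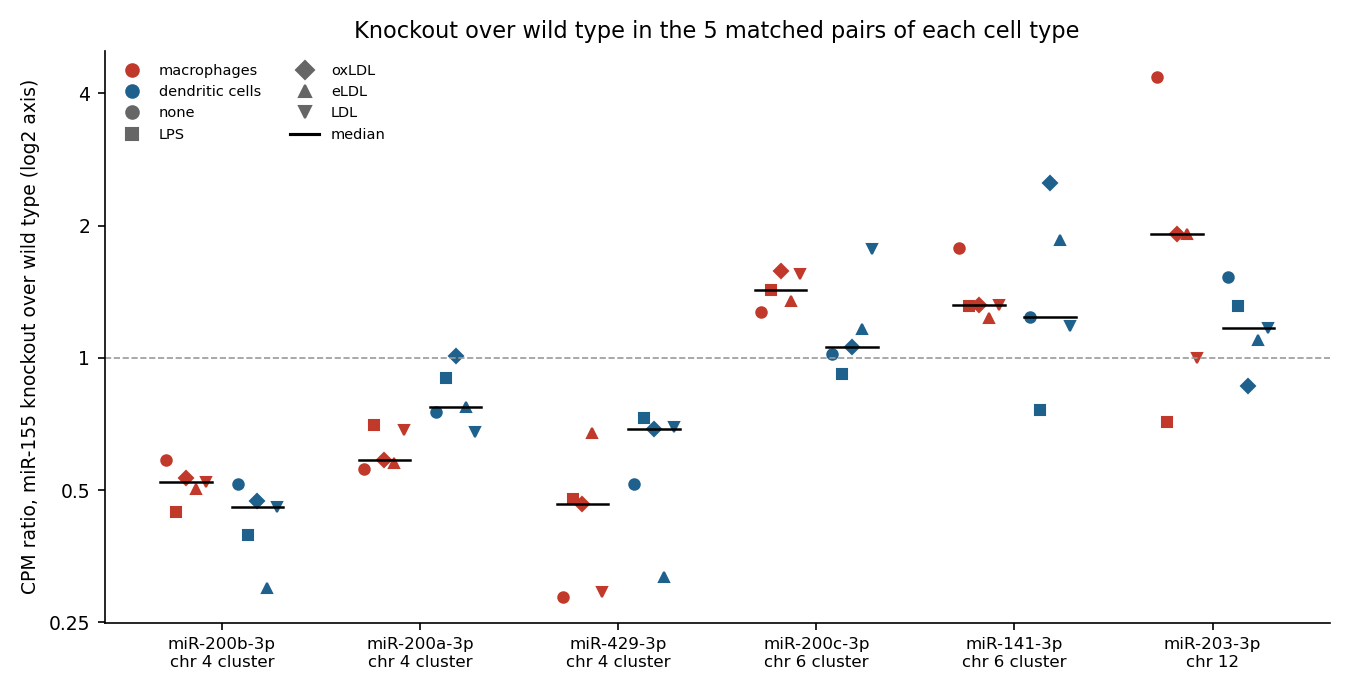
Ratio of the CPM in the miR-155 knockout library to that in the wild-type library of the same cell type and stimulus, on a log2 axis, with macrophages left of dendritic cells for each miRNA and a line at the median of 5 pairs. All 10 points of miR-200b-3p and of miR-429-3p lie below 1, and 9 of 10 points of miR-200c-3p and of miR-141-3p lie above 1.

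A ratio of 2 miRNAs read in the same library does not depend on the scaling. The CPM of miR-200c-3p divided by that of miR-200b-3p was 1.30 to 2.28 in knockout macrophages, against 0.597 to 0.824 in wild-type macrophages. It was 0.204 to 0.401 in knockout dendritic cells, against 0.103 to 0.165 in wild-type dendritic cells. The 4 cultures did not overlap in this ratio, which was higher in the knockout within each cell type and higher in macrophages within each genotype. The chromosome 6 pair held 64.0 ± 2.41% of the reads of the 5 family members in knockout macrophages and 40.8 ± 3.59% in wild-type macrophages, and 25.7 ± 3.22% in knockout and 13.5 ± 3.91% in wild-type dendritic cells (SD, n = 5 each), again with no overlap. The summed family level was 145.5 to 166.3 CPM in knockout dendritic cells, below the 220.8 to 270.7 CPM of wild-type dendritic cells. In macrophages the sum was 178.1 to 225.5 CPM in knockout and 204.4 to 255.7 CPM in wild-type cultures, which overlapped. A bulk library cannot tell fewer cells with a miRNA from less of it per cell.

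**Figure D4:**
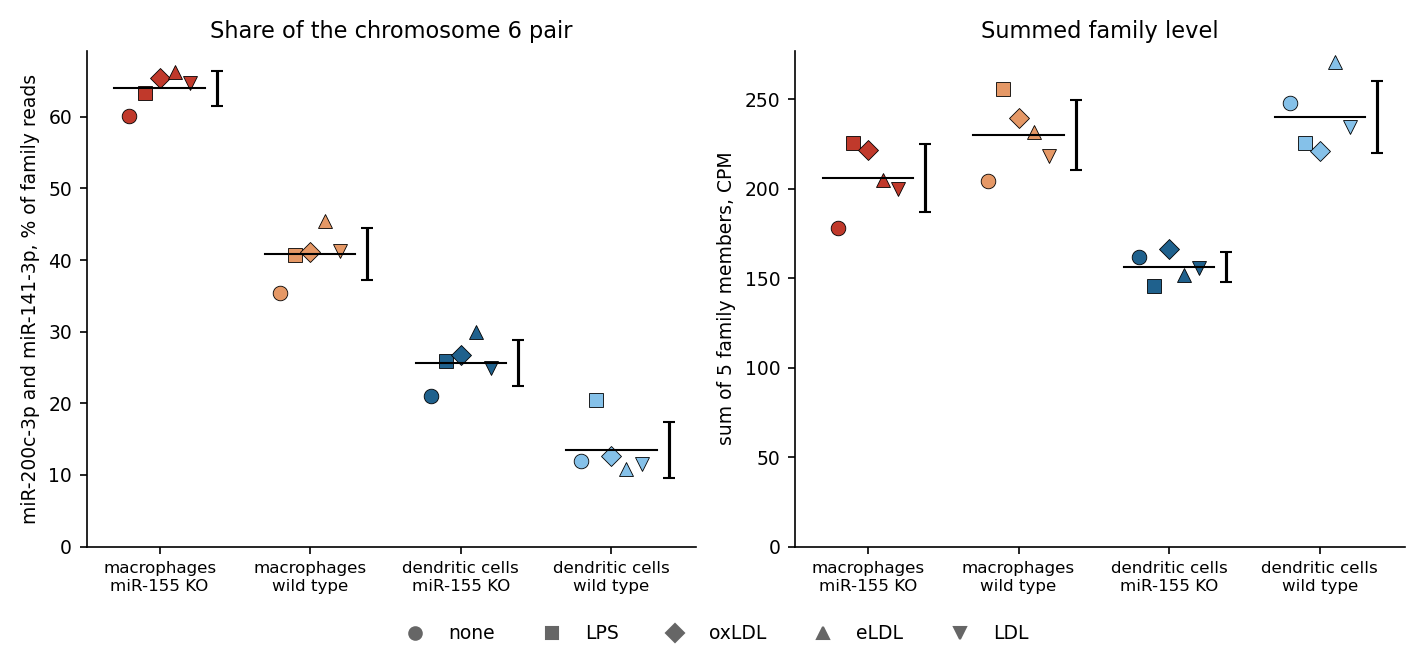
Left, share of miR-200c-3p and miR-141-3p in the reads of 5 miR-200 family members (miR-200a-3p, miR-200b-3p, miR-429-3p, miR-200c-3p and miR-141-3p), and right, the summed CPM of the same 5, for each library of the 4 cultures. Lines are means and brackets 1 SD over 5 libraries, and the share does not overlap between any 2 cultures.

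Within a cell type, members of a cluster had positive correlations with each other, and both members of the chromosome 6 pair had negative ones with miR-200b-3p. Over the 10 macrophage libraries, Spearman's rho was 0.915 for miR-200c-3p with miR-141-3p and 0.794 for miR-200b-3p with miR-429-3p, against -0.697 for miR-200b-3p with miR-200c-3p and -0.879 for miR-200b-3p with miR-141-3p. Over the 10 dendritic cell libraries it was 0.867 for miR-200b-3p with miR-429-3p and 0.309 for miR-200c-3p with miR-141-3p, against -0.418 for miR-200b-3p with miR-200c-3p. The unlinked miR-203-3p had 0.721 with miR-200c-3p in macrophages, and 0.370 with miR-200c-3p and 0.430 with miR-141-3p in dendritic cells. These are descriptions over libraries that share cultures and genotypes.

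Outside the family, the tested miRNAs whose CPM followed each member most closely, by Spearman's rho over 10 libraries, were as follows. They were picked as the highest values among all such miRNAs, over libraries of both genotypes. They are descriptions, and shared regulation was not tested. For miR-200b-3p they were miR-125a-5p (0.964), let-7e-5p (0.927) and miR-511-5p (0.903) in macrophages, and miR-181a-2-3p (0.964), miR-1983 (0.915) and miR-100-5p (0.879) in dendritic cells. For miR-200c-3p they were miR-146a-5p (0.964), miR-6240 (0.964) and miR-101b-3p (0.915) in macrophages, and miR-190b-5p (0.794), let-7f-1-3p (0.612) and miR-7a-5p (0.612) in dendritic cells. For miR-141-3p they were Mir187-3p (0.927), miR-101b-3p (0.927) and miR-423-5p (0.915) in macrophages, and miR-146b-5p (0.770), miR-139-3p (0.745) and Mir486-3p (0.697) in dendritic cells. For miR-203-3p they were miR-7a-5p (0.818), miR-129-5p (0.806) and miR-532-5p (0.794) in macrophages, and let-7i-5p (0.915), miR-7a-5p (0.879) and miR-331-5p (0.867) in dendritic cells, so that miR-7a-5p was among the 3 in both.

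The next comparison asks how the cell types differ. The chromosome 6 pair was higher in macrophages and the chromosome 4 cluster was lower. miR-200c-3p averaged 73.2 ± 11.8 CPM in knockout macrophages against 16.6 ± 2.97 CPM in knockout dendritic cells, and 50.8 ± 6.10 CPM in wild-type macrophages against 14.4 ± 2.69 CPM in wild-type dendritic cells. It was 2.98 to 5.44 times higher in macrophages in 10 of 10 matched pairs, with a log2 change of 2.11 ± 0.11 (adjusted p = 2.5e-10). miR-141-3p averaged 58.7 ± 3.97 CPM in knockout macrophages against 23.4 ± 4.44 CPM in knockout dendritic cells, and 43.2 ± 8.21 CPM in wild-type macrophages against 17.7 ± 7.26 CPM in wild-type dendritic cells, a log2 change of 1.46 ± 0.14 (adjusted p = 2.34e-07), higher in 10 of 10 pairs.

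miR-200b-3p was lower in macrophages in 10 of 10 pairs, at 0.512 to 0.913 of the dendritic cell level. Its log2 change was -0.44 ± 0.09 (adjusted p = 0.000432). miR-200a-3p differed by -0.40 ± 0.08 (adjusted p = 0.000201, lower in 9 of 10 pairs) and miR-429-3p by -0.91 ± 0.16 (adjusted p = 0.000161, lower in 10 of 10 pairs). These 3 calls were lost when wild-type and knockout libraries were taken as replicates without a genotype term, at adjusted p of 0.232 for miR-200b-3p, 0.115 for miR-200a-3p and 0.0534 for miR-429-3p. miR-203-3p was lower in macrophages in 9 of 10 pairs, with a log2 change of -0.46 ± 0.21 (adjusted p = 0.0576). It passed the threshold with total miRNA reads (-0.59, adjusted p = 0.0151), with DESeq2 size factors (-0.55, adjusted p = 0.0244), with the DESeq2 Wald test (-0.55, adjusted p = 0.0144), with no filter (-0.46, adjusted p = 0.038), with tags of 20 to 24 nt (-0.60, adjusted p = 0.0136) and without any 1 of 9 libraries (-0.53 to -0.69). Of the 4 members 3 were called, 2 as higher and 1 as lower, beside 78.3% of all miRNAs tested, 43.1% as higher and 35.2% as lower. Total miRNA reads lowered the median of all miRNAs in this comparison by 0.14, and the direction of each member held.

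LPS, the bacterial lipopolysaccharide sensed by TLR4, gave called members in dendritic cells, with miR-203-3p the largest change. miR-203-3p was at 34.8 CPM with LPS against 15.2 CPM without in knockout dendritic cells, and at 26.6 CPM with LPS against 9.91 CPM without in wild-type dendritic cells. Every other dendritic cell library held 9.35 to 15.2 CPM, so the 2 LPS libraries stood above the other 8. How many of all tested miRNAs were separated in this way is not given, and 16.1% were called higher in this comparison. The ratios were 2.29 in the knockout pair and 2.69 in the wild-type pair, and the fitted log2 change was 1.85 ± 0.46 (adjusted p = 0.00853). The call was lost without the unstimulated wild-type library (1.72, adjusted p = 0.0725) or the LPS knockout library of dendritic cells (1.59, adjusted p = 0.0703).

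miR-141-3p and miR-200c-3p were called higher with LPS in dendritic cells as well. miR-141-3p was at 22.6 CPM with LPS against 20.8 CPM without in knockout cells, and at 29.8 CPM with LPS against 16.8 CPM without in wild-type cells (log2 change 1.11 ± 0.32, adjusted p = 0.0194). miR-200c-3p was at 15.1 CPM with LPS against 13.2 CPM without in knockout cells, and at 16.4 CPM with LPS against 12.9 CPM without in wild-type cells (log2 change 0.84 ± 0.25, adjusted p = 0.0253). miR-200b-3p was at 39.4 CPM with LPS against 64.8 CPM without in knockout cells, and at 99.3 CPM with LPS against 125 CPM without in wild-type cells (log2 change 0.03 ± 0.20, adjusted p = 0.969). The fitted changes exceed the CPM ratios because TMM scaling, which was used in the fit, gave factors of 0.830 and 0.803 to the LPS libraries of knockout and wild-type dendritic cells, against 1.15 and 1.26 to their unstimulated libraries.

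Which of these members is called depends on the scaling and on other settings. With total miRNA reads in place of TMM, the median LPS change of all miRNAs in dendritic cells was lower by 0.56. miR-203-3p was still called under that scaling (1.29, adjusted p = 0.0311), while miR-141-3p (0.53, adjusted p = 0.190) and miR-200c-3p (0.27, adjusted p = 0.378) lost theirs and miR-200b-3p was called lower (-0.53, adjusted p = 0.0396). With genotypes taken as replicates, miR-141-3p (1.03) and miR-200c-3p (0.82) each had an adjusted p of 0.132, and miR-200c-3p was also not called with a filter of 1 CPM (0.72, adjusted p = 0.0609), no filter (0.70, adjusted p = 0.138) or tags of 20 to 24 nt (0.68, adjusted p = 0.0563). The call of miR-141-3p was also lost without the unstimulated library of wild-type (1.29, adjusted p = 0.0561) or knockout dendritic cells (0.87, adjusted p = 0.166), the LPS library of wild-type dendritic cells (0.31, adjusted p = 0.649) or the oxLDL library of knockout macrophages (0.93, adjusted p = 0.0568). That of miR-200c-3p was lost without any 1 of 12 libraries (0.44 to 1.03), by most without the LPS library of wild-type dendritic cells (0.44, adjusted p = 0.402). Of the 4 members, 3 were called with TMM, all as higher. Over all miRNAs 25.7% were called and 16.1% were called higher, and the members' median was 0.97 beside 0.07 over all. miR-200a-3p, at 52.5 CPM with LPS against 48.6 CPM without in knockout cells and 58.2 CPM with LPS against 64.5 CPM without in wild-type cells, had a log2 change of 0.54 ± 0.17 (adjusted p = 0.0297) with TMM and of -0.02 with total miRNA reads, and miR-429-3p of 0.44 ± 0.36 with TMM and of -0.11 with total miRNA reads.

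In macrophages 0 of the 4 members were called with LPS by edgeR's quasi-likelihood test and 0 by the DESeq2 Wald test. By the quasi-likelihood test 19.6% of all miRNAs were called. At an unadjusted p under 0.05 there was 1 member, beside 118 of all 378 miRNAs tested. miR-203-3p was at 12.6 CPM with LPS against 12.7 CPM without in knockout macrophages, and at 17.6 CPM with LPS against 2.91 CPM without in wild-type macrophages, where the unstimulated library held 21 reads. The LPS ratios were 0.990 (95% counting interval 0.751 to 1.30) in the knockout and 6.06 (3.81 to 10.1) in the wild type, and the fitted log2 change was 1.11 ± 0.48 (adjusted p = 0.127). Without the unstimulated or the LPS library of knockout macrophages it was 2.15 (adjusted p = 0.0163) or 1.81 (adjusted p = 0.0273). The remaining members had log2 changes of 0.43 ± 0.24 for miR-200c-3p (adjusted p = 0.235), 0.38 ± 0.30 for miR-141-3p (adjusted p = 0.420) and -0.10 ± 0.20 for miR-200b-3p (adjusted p = 0.788). The LPS effect in macrophages minus that in dendritic cells was -0.74 ± 0.65 for miR-203-3p (adjusted p = 0.502), -0.73 ± 0.44 for miR-141-3p (adjusted p = 0.313), -0.41 ± 0.34 for miR-200c-3p (adjusted p = 0.479) and -0.13 ± 0.28 for miR-200b-3p (adjusted p = 0.801), where 14.8% of all miRNAs were called, so a difference between the cell types in the LPS effect was not shown.

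**Figure D5:**
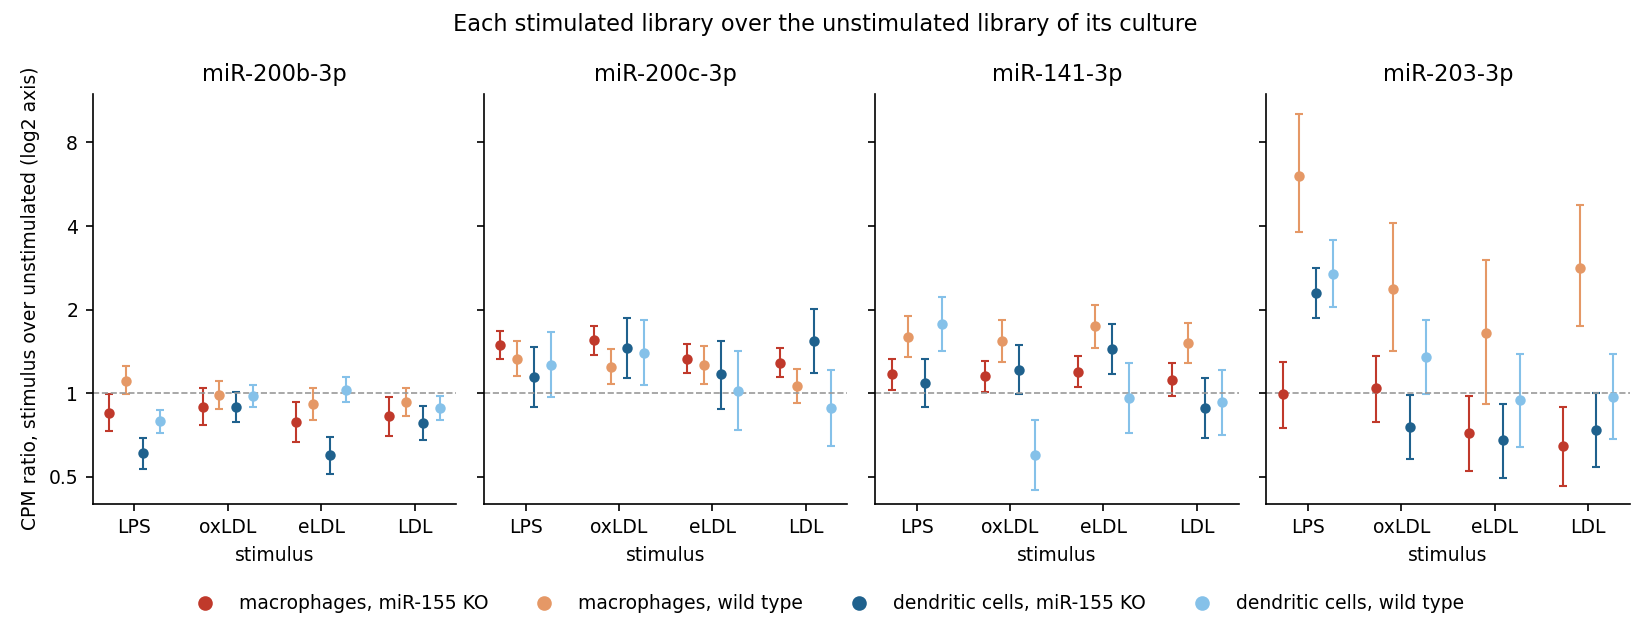
CPM in each stimulated library divided by that in the unstimulated library of the same culture, on a log2 axis, with exact 95% intervals of counting error. The LPS ratios of miR-203-3p are 2.29 and 2.69 in knockout and wild-type dendritic cells, and 0.990 and 6.06 in knockout and wild-type macrophages.

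The lipoproteins oxLDL, eLDL and LDL were averaged against no stimulus. By edgeR's quasi-likelihood test 0 of the 4 members were called in either cell type, and 0 by the DESeq2 Wald test, where 13% of all miRNAs were called in macrophages and 0.265% in dendritic cells. At an unadjusted p under 0.05 there was 1 member in macrophages, beside 93 of all 378 miRNAs, and 0 in dendritic cells, beside 47 of 378. That member was miR-200b-3p, with a log2 change of -0.36 ± 0.16 (adjusted p = 0.185) and ratios of 0.787 to 0.895 in knockout macrophages and 0.915 to 0.984 in wild-type macrophages. miR-200c-3p had log2 changes of 0.18 ± 0.19 (adjusted p = 0.621) in macrophages and 0.45 ± 0.21 (adjusted p = 0.402) in dendritic cells. miR-141-3p had 0.25 ± 0.25 (adjusted p = 0.591) in macrophages and 0.13 ± 0.26 (adjusted p = 0.915) in dendritic cells. miR-203-3p had 0.03 ± 0.39 (adjusted p = 0.973) in macrophages, where its ratios were 0.648 to 1.04 in the knockout and 1.65 to 2.82 in the wild type, and -0.06 ± 0.37 (adjusted p = 0.979) in dendritic cells, where they were 0.677 to 0.756 in the knockout and 0.943 to 1.35 in the wild type.

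The share of the chromosome 6 pair in family reads was lowest in the unstimulated library of 3 of the 4 cultures. It was 60.1% without stimulus against 63.4 to 66.3% with one in knockout macrophages, 35.4% against 40.7 to 45.5% in wild-type macrophages and 21% against 24.9 to 29.9% in knockout dendritic cells. In wild-type dendritic cells it was 12.0% without stimulus, 20.4% with LPS and 10.9 to 12.7% with the lipoproteins. Each value is a single library, and this pattern was not tested.

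The list of 16 miRNAs with epithelial use, which includes the family and miR-203, places the members among others of that kind, of which 12 were tested. It was drawn up with earlier results of these data known. In knockout against wild-type cells 3 rose (miR-34c-5p, miR-184-3p and miR-194-5p) and 3 fell (miR-200a-3p, miR-200b-3p and miR-429-3p) in macrophages, and 0 rose and 2 fell in dendritic cells (miR-200b-3p and miR-34c-5p), beside 23.5% and 8.99% of all miRNAs called. With total miRNA reads the counts were 6 and 3 in macrophages and 0 and 3 in dendritic cells. In macrophages against dendritic cells 7 were higher and 3 lower, beside 78.3% of all called, against 6 and 5 with total miRNA reads and 6 and 0 with genotypes taken as replicates. miR-184-3p, known from cornea and lens epithelium, was at a median of 252 CPM in knockout and 108 CPM in wild-type macrophages, against 14.5 CPM in knockout and 13 CPM in wild-type dendritic cells (log2 change between cell types 3.90, adjusted p = 2.32e-10). Its knockout change in macrophages, 0.82 (adjusted p = 0.0182), was not called without the LDL library of knockout macrophages (0.76, adjusted p = 0.0618). miR-192-5p and miR-194-5p, abundant in intestine and kidney, were also higher in macrophages (1.72 and 2.11). miR-34c-5p, a miRNA of multiciliated cells and a p53 target, rose in knockout macrophages (1.24, adjusted p = 0.000138) and fell in knockout dendritic cells (-0.91, adjusted p = 0.00518), and the difference of 2.15 between the cell types had an adjusted p of 3.65e-05.

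With LPS in dendritic cells 7 of the 12 rose and 0 fell, with a median of 0.55, where 25.7% of all miRNAs were called and 16.1% were called higher. Among the 7 were miR-203-3p, miR-141-3p, miR-200c-3p and miR-200a-3p, already given above. The rest were miR-192-5p, miR-194-5p and miR-31-5p. With total miRNA reads 2 rose and 1 fell, with a median of -0.01, and with genotypes taken as replicates 3 rose and 0 fell. miR-31-5p had the largest of these changes, 3.42 (adjusted p = 0.00358), lost without the LPS library of knockout dendritic cells (2.32, adjusted p = 0.087). Of the 12, 0 were called with LPS in macrophages by edgeR's quasi-likelihood test, beside 19.6% of all miRNAs, and 2 by the DESeq2 Wald test. At an unadjusted p under 0.05 there were 3 of the 12, beside 118 of all 378 miRNAs. The summed level of the list was 1270 to 1650 CPM in knockout and 963 to 1280 CPM in wild-type macrophages, and 426 to 499 CPM in knockout and 520 to 609 CPM in wild-type dendritic cells. miR-192-5p had the highest median of the list in every culture. It was at 738 and 591 CPM in knockout and wild-type macrophages, where the median sums were 1430 and 1090 CPM. In knockout and wild-type dendritic cells it was at 236 and 233 CPM, where the median sums were 473 and 599 CPM.

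Markers of other cells were looked at beside the knockout difference of miR-200b-3p. The summed stromal list of 8 miRNAs was 30.7 to 221 CPM in knockout and 139 to 530 CPM in wild-type macrophages, and 32.8 to 90.8 CPM in knockout and 84.2 to 300 CPM in wild-type dendritic cells. Of its 3 tested members 1 was called lower in each cell type. Over all miRNAs tested 14.6% were called lower in macrophages and 4.23% in dendritic cells. The list was mixed. Median miR-143-3p was 4.04 CPM in knockout against 107 CPM in wild-type macrophages, and 3.80 against 52.1 CPM in dendritic cells. Median miR-10b-5p was 126 against 163 CPM in macrophages and 10.9 against 15.1 CPM in dendritic cells. Median miR-199a-3p was 2.09 against 5.14 CPM and 26.1 against 25.7 CPM. The endothelial and megakaryocyte pair, the arms of miR-126a, was at 2.92 to 9.31 CPM in knockout and 12.0 to 16.8 CPM in wild-type macrophages, with both arms called lower, and at 5.61 to 7.84 CPM in knockout and 4.25 to 18.2 CPM in wild-type dendritic cells. The lymphoid pair was at 97.3 to 167 CPM in knockout and 63.6 to 161 CPM in wild-type macrophages, and at 6.15 to 16.9 CPM in knockout and 8.23 to 24 CPM in wild-type dendritic cells. The erythroid sum was at 0.335 to 9.62 CPM over all libraries, from the 3 arms with reads, miR-451a, miR-144-3p and miR-144-5p. It leaves out miR-486a-5p of that list, because the 5p arm of miR-486 was counted jointly with Mir3107-5p under another name. miR-122-5p, a marker of liver and serum, was at 0 to 4.57 CPM. The part of these cell types in the differences of the members was not tested.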

How the data were processed

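The authors deposited, for each of 20 small RNA libraries, a table of tags with their counts, made from Trizol RNA with a TruSeq kit per the labels. CASAVA 1.8.2 is named in the submitters' processing notes, without a role. Deposited counts were used as they are. Tags of 18 to 26 nt that matched 1 of 1174 hairpins (GRCm38) exactly were assigned to an arm of the RefSeq mature table when they began within 2 nt of the arm's most abundant start. Tags matching several arms were split equally. CPM were computed here as counts per library total of hairpin reads. Rounded counts were tested with edgeR 4.0.16 (R 4.3.3, quasi-likelihood, robust, TMM) over all 20 libraries, with a term for each culture and stimulus terms within each cell type, leaving 8 residual degrees of freedom. A miRNA was tested when 2 or more libraries held 5 CPM or more, and called at a Benjamini-Hochberg adjusted p under 0.05. SE is the log2 change over the square root of F. Intervals are exact 95% Poisson intervals for CPM and binomial-based for ratios, and cover counting error only. The fit was also run on counts simulated as independent libraries, which cannot speak to the missing replicates, and its outcome is not used here. DESeq2 1.42.0 and other scalings, filters, tag lengths, designs and left-out libraries were alternatives. The matched libraries share genotype or stimulus labels and not a stated animal.

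The members and gene lists were chosen with earlier results of these data known. Named miRNAs were the members, their other arms and family neighbours, list members, miR-155-5p and the 3 tested miRNAs closest to each member by Spearman's rho.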

Additional observations from a re-analysis of the deposited data

Results flagged for a closer look

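The knockout effect on miR-200a-3p passed the test of a difference between the cell types in the fit reported, and not in all others. Its log2 change in macrophages minus that in dendritic cells was -0.64 ± 0.15 (SE, adjusted p = 0.00973, edgeR quasi-likelihood). The knockout library was lower in 5 of 5 macrophage pairs, at 0.558 to 0.704 of the wild-type level, and at 0.679 to 1.01 in dendritic cell pairs. The call was lost with total miRNA reads (-0.40, adjusted p = 0.129), with a filter of 1 CPM (-0.56, adjusted p = 0.0682) or none (-0.58, adjusted p = 0.173), and without any 1 of 9 libraries.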

How the results depend on the processing

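The fall of miR-200b-3p without miR-155 was called under all alternatives with a genotype term. It was at -1.15 to -1.05 in macrophages and -1.28 to -1.04 in dendritic cells when 1 library was left out. The fit with genotypes taken as replicates has no such term and cannot test it.

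The number of miRNAs called changed with LPS in dendritic cells, 97 at first, to 150 with total miRNA reads, 39 with no replicate block (genotypes taken as replicates) and 50 to 100 with 1 library left out. With LPS in macrophages it changed from 74 to 29 with no replicate block and 51 to 76 with 1 left out. The LPS difference between cell types gave 56, and 94 with total miRNA reads, 11 with no replicate block and 28 to 54 with 1 left out. Lipoproteins in dendritic cells gave 1, and 7 with the DESeq2 Wald test, 8 with no filter, 0 with tags of 20 to 24 nt or no replicate block, and 0 to 3 with 1 left out. Lipoproteins in macrophages gave 49, and 5 with no replicate block and 17 to 49 with 1 left out. With 1 left out the knockout gave 16 to 34 calls in dendritic cells, 76 to 93 in macrophages and 44 to 56 for their difference, and the cell types 284 to 299.

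Some changes turned sign, of which only that of miR-200a-3p with LPS in dendritic cells had been called. With LPS in dendritic cells miR-200b-3p was at -0.53 with total miRNA reads, -0.03 with DESeq2 size factors or the Wald test, -0.09 with a filter of 1 CPM, -0.11 with no filter, -0.13 with tags of 20 to 24 nt and -0.00 with position 20 not compared. There miR-200a-3p was at -0.02 and miR-429-3p at -0.11 with total miRNA reads. With LPS in macrophages miR-200b-3p was at 0.02 with no filter or with tags of 20 to 24 nt. The LPS difference between cell types was 0.50 for miR-200b-3p and 0.22 for miR-200c-3p with total miRNA reads, and for miR-200b-3p 0.01 with a filter of 1 CPM, 0.12 with no filter and 0.16 with tags of 20 to 24 nt. With lipoproteins miR-141-3p in dendritic cells was at -0.01 with total miRNA reads, and miR-203-3p in macrophages at -0.13 with tags of 20 to 24 nt and -0.05 with no replicate block. The knockout difference between cell types of miR-141-3p was 0.00 with total miRNA reads. The causes were not tested.

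With 1 library left out, signs turned within these ranges. With LPS they were -0.21 to 0.09 for miR-200b-3p in dendritic cells, -0.25 to 0.06 for miR-200b-3p and -0.08 to 0.77 for miR-429-3p in macrophages. For the LPS difference they were -0.28 to 0.22 (miR-200b-3p), -0.60 to 0.10 (miR-200c-3p), -0.92 to 0.19 (miR-141-3p) and -1.52 to 0.30 (miR-203-3p). With lipoproteins they were -0.20 to 0.10 (miR-200b-3p), -0.03 to 0.29 (miR-141-3p) and -0.20 to 0.21 (miR-203-3p) in dendritic cells and -0.53 to 1.12 (miR-203-3p) in macrophages. For the knockout difference they were -0.08 to 0.20 (miR-200b-3p), -0.05 to 0.33 (miR-200c-3p) and -0.19 to 0.51 (miR-203-3p). No paired analysis was possible for the knockout comparisons beyond the matched stimulus terms because each condition has 1 library. Depth limits miR-203-3p most, which had 21 reads in unstimulated wild-type macrophages.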
